A study of Mus musculus with 7 samples.

Results

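The 9 genes examined here encode the receptors (Notch1, Notch2, Notch3, Notch4), the ligands (Dll1, Dll4, Jag1, Jag2) and the DNA-binding factor (Rbpj) of the Notch pathway. They were chosen by name from the 21938 protein-coding genes of GENCODE release M21 on mouse build GRCm38, and every peak within the gene body and 20 kb either side was taken. These 9 windows held 216 of the 122720 regions obtained by merging the ATAC peaks of all libraries. The libraries came from muscle stem cells (MuSCs), the resident stem cells of skeletal muscle. The methods describe a FACS sort of α7-integrin+ cells that were also VCAM+ or CD34+ and lacked CD45, CD31, CD11b and Sca1. For the CUT&Tag cells they refer to a separately published isolation, so this sort may not apply to those libraries. ATAC-seq, in which a transposase cuts accessible chromatin, was done on 2 Control and 2 TRF2KO libraries from uninjured hind limb muscle, labelled 0 h. In the TRF2KO animals floxed Terf2, the gene encoding the telomere-binding protein TRF2, was deleted with a tamoxifen-inducible Cre under Pax7 (Pax7CreERT2), so that deletion was limited to cells that express Pax7. The genotype field of all 7 libraries reads wild type and the titles were used for grouping, and whether the Control animals carried Cre or received tamoxifen was not given in the sources used here. CUT&Tag, in which an antibody tethers the transposase to the chromatin that a protein occupies, gave 2 TRF2 libraries and 1 IgG library from wild-type tibialis anterior MuSCs, labelled 3 days after injection of 10 µl notexin, a muscle-damaging toxin. The methods name a shorter time after injury, gastrocnemius as a further muscle, and animals carrying a Pax7-driven Cre with a TdTomato reporter, so the time and source of these cells are uncertain. The mice were kept on a C57BL/6 background.

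Notch signaling passes between touching cells. A ligand of the Delta-like or Jagged family on the sending cell engages a Notch receptor on its neighbor, the receptor is cleaved, and its intracellular domain enters the nucleus and turns the DNA-bound factor RBPJ from a repressor into an activator. In adult muscle the pathway is known for keeping MuSCs quiescent and undifferentiated, with Notch1, Notch2 and Notch3 as the receptors studied in these cells.

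The comparison of genotypes asked whether loss of TRF2 altered accessible chromatin at these genes, and the CUT&Tag lists asked where TRF2 was found there. The ATAC lists held 84102 to 100521 peaks and the median summit rested on 27 to 30 fragments. The background pileup was 4.56 fragments in Control replicate 2 and 3.35 to 3.41 in the other 3 libraries, which makes Control replicate 2 the deepest. The TRF2 lists held 12290 and 15479 peaks and the IgG list 656, with a median summit of 9 fragments, so single TRF2 peaks are imprecise. At the start of the deleted gene, Terf2, the Control folds over background were 54.3 and 48.4 and the TRF2KO folds 21.5 and 18.6 (log2 difference -1.32, SE 0.11, limma adjusted p = 2.19e-08). This peak is no measure of transcript, and it checks the labels only in that both TRF2KO libraries were the lower ones. Among all protein-coding genes, 58.8% had a start-site peak in all 4 libraries, and 1.31% of the fitted start regions were called lower in TRF2KO. Of 8 MuSC marker genes, 8 had a start-site peak in all 4 libraries, with Itga7 and Cdh15 called lower in TRF2KO. The same held for 3 of 6 endothelial, 1 of 4 immune, 1 of 3 fibro-adipogenic and 2 of 3 mural marker genes, with Dpt (fibro-adipogenic) and Acta2 (mural) called lower in TRF2KO and the mural gene Rgs5 listed in the TRF2KO libraries alone (folds 6.18 and 3.40), and Pecam1, Erg, Ptprc, Itgam, Adgre1, Pdgfra and Ly6a, markers of other resident cells, had none in any library. The part of other cells in the results was not tested.

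Most Notch genes had accessible start sites. A peak over the start of the principal transcript was listed in all 4 libraries for 8 of the 9 genes (58.8% of all protein-coding genes had one), and the exception was Notch4, a receptor best known from endothelium. The values are MACS folds, that is, the summit pileup over the background, after a constant was added to both. The ATAC background was constant within each library and not local, so levels are comparable between genes only as summit heights. Rbpj, the nuclear factor of the pathway, had the highest start-site peak, with folds of 89.8 and 81.5 in Control and 91.0 and 92.4 in TRF2KO. It ranked at percentile 95.5 to 96.6 of the 4 lists and rested on 389 to 452 fragments at the summit. Notch3 followed with 79.4 and 64.8 in Control and 75.2 and 84.4 in TRF2KO, and Jag1, a Jagged ligand, with 74.3 and 68.0 against 77.1 and 65.8. The folds of Rbpj and Notch3 overlapped, as did those of Notch3 and Jag1. The genotypes overlapped at Notch3 and Jag1, while at Rbpj both TRF2KO values were above both Control values by a small margin. Such a lack of overlap was common, with TRF2KO above in 18.5% and below in 29.9% of all regions with a peak in all 4 libraries.

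The receptors Notch1 and Notch2 and the ligand Dll1 came next. Notch1 had folds of 57.1 and 45.5 in Control and 61.5 and 47.7 in TRF2KO. Notch2 had 45.8 and 48.1 in Control and 60.8 and 56.7 in TRF2KO. Both TRF2KO values lay above both Control values, as in 18.5% of all regions with a peak in all 4 libraries. Dll1 had 35.7 and 32.8 in Control and 28.4 and 28.6 in TRF2KO. Here the TRF2KO values were the lower ones, as in 29.9% of those regions. The remaining ligands stood lower, with Jag2 at 20.3 and 16.2 in Control and 15.8 and 15.9 in TRF2KO, again without overlap. Dll4, a ligand known from vascular development, had 9.44 and 8.82 in Control and 7.78 and 9.31 in TRF2KO, on 33 to 48 fragments. Notch4 had no start-site peak in Control replicate 1 and folds of 3.24 in Control replicate 2 and 3.20 and 4.31 in TRF2KO, on 13 to 18 fragments. A missing peak says only that the threshold was not passed.

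**Figure D1:**
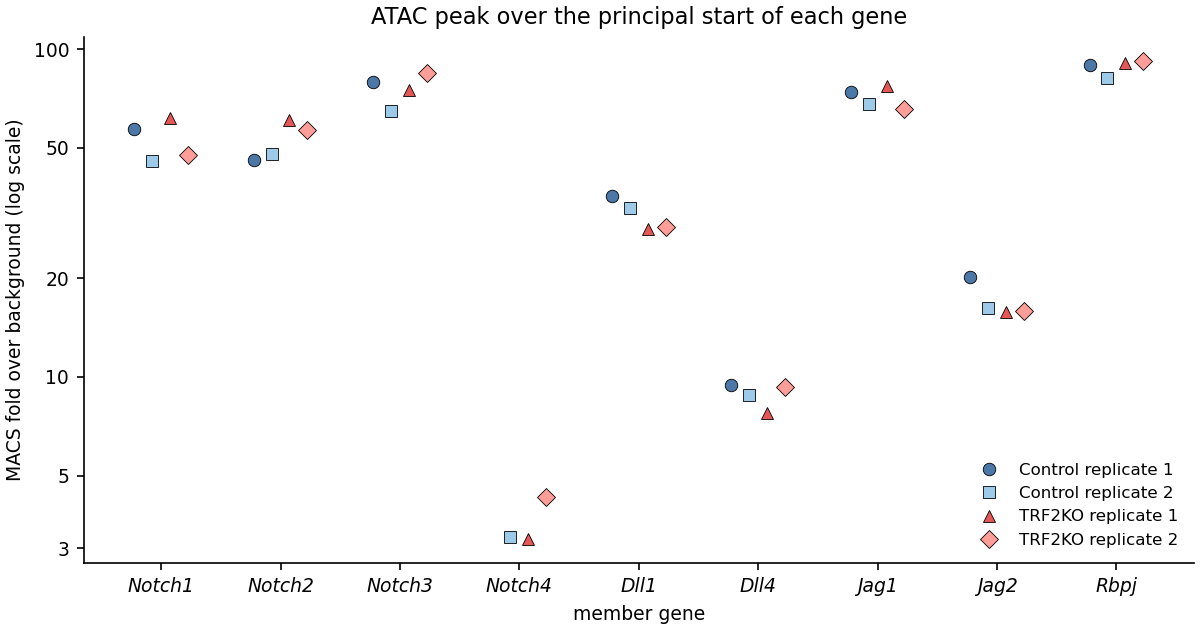
MACS fold of the ATAC peak over the principal start of each member gene (log axis), with 1 point per library. Rbpj sat highest, at 81.5 to 92.4, and Notch4 lowest, at 3.20 to 4.31, with no peak in Control replicate 1.

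Among the 8 start regions that could be fitted, 1 was called higher in TRF2KO and 0 were called lower by limma on quantile-normalized log2 folds (Benjamini-Hochberg over all 61595 regions fitted) (1 of the 8 had an unadjusted p under 0.05). Over all protein-coding genes, 5.83% of fitted start regions were called higher and 1.31% lower. The region called higher was that of Notch2 (log2 difference 0.30, SE 0.10, adjusted p = 0.0445). The others had log2 differences from -0.21 (Dll1, SE 0.11, adjusted p = 0.241) to 0.07 (Notch3, SE 0.08, and Dll4, SE 0.21), and Rbpj stood at 0.00 with an SE of 0.07. The Notch2 value was 0.15 without Control replicate 1 and 0.45 without Control replicate 2, and with the mean fold of the peaks in the region in place of the highest the sign turned (-0.091, adjusted p = 0.866). The 250 bases before the first annotated Notch2 start (chr3:98013277-98013526, plus strand) are shown because this was the start region that passed the test. They are 73.6% G and C and hold no G-quadruplex (G4) pattern, a pattern able to fold into a 4-stranded guanine structure, with loops of up to 12 bases.
Notch2, before the start: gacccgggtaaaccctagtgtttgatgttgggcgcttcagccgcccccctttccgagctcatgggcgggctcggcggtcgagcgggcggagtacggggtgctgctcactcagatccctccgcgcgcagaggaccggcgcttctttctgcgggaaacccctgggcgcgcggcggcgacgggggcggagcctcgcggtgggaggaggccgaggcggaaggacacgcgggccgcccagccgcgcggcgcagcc

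Peak numbers in the windows followed the whole lists. Summed over the 9 windows there were 151 and 176 peaks in Control and 141 and 151 in TRF2KO, with means of 163.5 ± 17.7 and 146 ± 7.07 (SD, 2 libraries each). TRF2KO thus had -17.5 peaks relative to Control (-10.7%, against -11.0% for the whole lists), with p = 0.667 in an exact permutation test, two-sided, where 0.333 is the smallest p that 6 assignments of 2 against 2 can give. Without Control replicate 2, the deepest library, the difference was -5 peaks. The peaks covered 144.7 and 163.6 kb in Control and 132.1 and 125.8 kb in TRF2KO, a difference of -25.2 kb (-16.3%, against -13.5% for the whole lists, exact permutation p = 0.333). By gene, Notch2 had 30 and 34 peaks in Control and 29 and 21 in TRF2KO, Jag1 had 12 and 11 against 9 and 8, and Notch3 had 20 and 19 against 16 and 17. In these 3 windows both TRF2KO libraries were below both Control libraries (exact permutation p = 0.333 each), as in 14.2% of all protein-coding gene windows, and both whole TRF2KO lists were also shorter than both Control lists. Rbpj had 22 and 27 peaks in Control and 22 and 21 in TRF2KO. Notch1 had 29 and 33 in Control and 28 and 36 in TRF2KO, and its groups overlapped, as did those of Notch4, Dll1, Dll4 and Jag2.

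**Figure D2:**
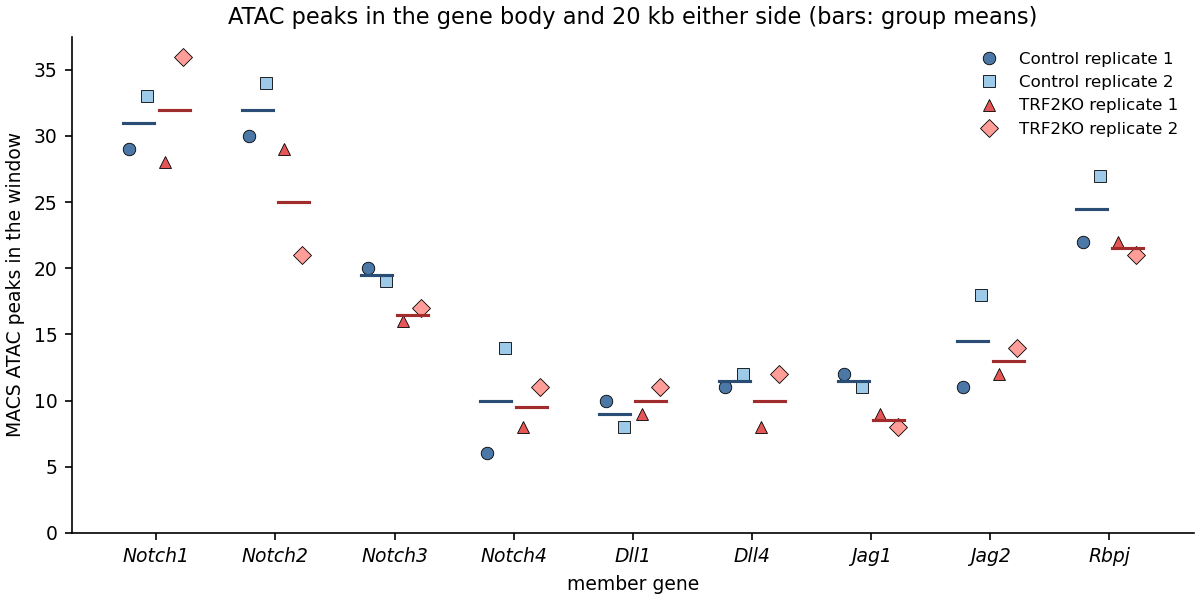
MACS ATAC peaks in the gene body and 20 kb either side of each member gene, with 1 point per library and bars at the group means. In the windows of Notch2, Notch3 and Jag1 both TRF2KO points lie below both Control points, as for the whole lists, and the lowest Notch2 point is TRF2KO replicate 2, with 21 peaks.

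The 9 windows were dense in peaks. They held a median of 23.4 merged regions per 100 kb, against 6.91 over the windows of all protein-coding genes, with the highest density at Notch1 (42.5) and the lowest at Rbpj, the longest gene. Of the 216 regions, 97 (44.9%) had a peak in all 4 libraries (50.2% of all merged regions did). A further 74 had a peak in a single library, and 35 of these were in Control replicate 2.

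Regions listed in 1 genotype were few and weak. In 11 regions (5.09%) both Control libraries and no TRF2KO library had a peak, and 4.48% of all merged regions were of this kind. There were 0 with a peak in both TRF2KO and in no Control library (1.12% of all merged regions). Notch2 held 5 of the 11, Jag1 held 2, and Notch1, Notch3, Dll1 and Rbpj held 1 each. Their folds in Control were 2.99 to 5.75 on 12 to 26 fragments at the summit, and none held a TRF2 region. The highest was in an intron of Notch2 (chr3:98053710-98054176, folds 5.75 and 4.86). The next by either library was in an intron of Rbpj (chr5:53564365-53564667, folds 5.06 and 3.06). GoPeaks listed 5 of the 11 in a Control library and none in a TRF2KO library, while SEACR had a region over 7 of them in at least 1 TRF2KO library. The MACS count rested on both replicates being present: it was 47 without Control replicate 1, 24 without Control replicate 2 and 17 without either TRF2KO library, while the TRF2KO count was 1, 1, 17 and 12.

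Fold changes at the 97 shared regions went both ways. Limma called 6 regions higher and 9 lower in TRF2KO, against 4.95% higher and 7.32% lower of all fitted regions (12.3% in either direction). In the member windows the median log2 difference was 0.00 (0.02 over all regions), with 49 regions above 0 and 48 below. Both TRF2KO folds lay above both Control folds in 17 regions (18.5% of all shared regions) and below them in 35 (29.9% of all shared regions). Leaving out Control replicate 1, Control replicate 2, TRF2KO replicate 1 or TRF2KO replicate 2 left 0 of the 97 called by limma, but those fits called none of the 61595 regions either, so the loss says nothing about the members. The direction of all 15 called regions was kept each time. These regions were chosen by their p in the same 4 libraries. Where the genotypes do not overlap, leaving out 1 library can hardly turn a sign, so the kept direction is no independent support. With median centring 16 regions were called higher and 9 lower, and without normalization 2 and 8, so the split depended on the scaling. Median centring ended the calls of the Notch3 region and of the Notch1 region 15.9 kb after the start. Leaving out normalization ended those 2 and the calls at the Notch2 start, the Pbx2 start, the called Dll1, Dll4 and Jag1 regions and the Rbpj region 99.6 kb before the start. With the mean fold of a region's peaks, the Notch1 regions 29.5 kb before and 15.9 kb after the start were the 2 of the 15 still called. The regions given next are those called, which were thus chosen for their p, together with the start regions, TRF2 regions and highest peaks.

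**Figure D3:**
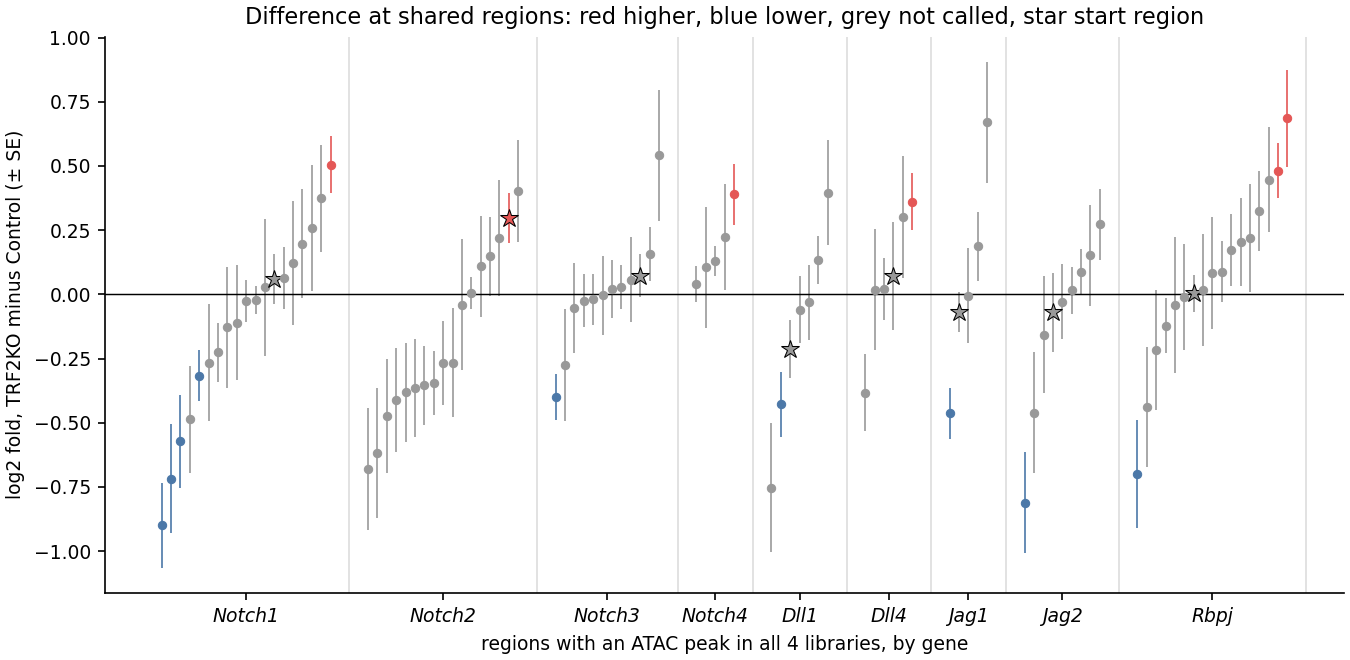
Log2 difference in ATAC fold, TRF2KO minus Control, with its SE (bars), for the 97 regions with a peak in all 4 libraries, ordered by value within each gene. Stars mark start regions, red the 6 regions called higher, blue the 9 called lower and grey those not called, and in the Notch2 panel 11 of 17 points lie below 0.

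Among the receptors, Notch1 had the most called regions, 4 lower and 1 higher. The largest change was 29.5 kb before its principal start (chr2:26532906-26533891), with folds of 20.9 and 20.9 in Control and 10.7 and 9.76 in TRF2KO (log2 difference -0.90, SE 0.16, adjusted p = 6.15e-04). Without 1 library it was -1.01 to -0.81. The other 3 that were lower lay side by side within the gene, 9.05 to 15.9 kb after the start. In the strongest of them (chr2:26485094-26489881) the folds were 52.0 and 42.3 in Control and 39.1 and 36.1 in TRF2KO (log2 difference -0.32, adjusted p = 0.0347). This value was -0.17 with median centring (adjusted p = 0.219) and -1.22 with the mean fold of its peaks. In the middle one (chr2:26490329-26491583) they were 10.8 and 9.72 against 5.72 and 5.45 (-0.72, adjusted p = 0.0266), and in the nearest to the start (chr2:26491801-26496174) 19.3 and 13.9 against 9.61 and 10.2 (-0.57, adjusted p = 0.0387). The region that was higher lay 3.93 kb before the principal start, in an intron of a longer transcript (chr2:26506483-26508292), with folds of 46.9 and 31.1 in Control and 56.5 and 52.4 in TRF2KO (0.50, SE 0.11, adjusted p = 0.00343), and the difference was 0.30 without Control replicate 2. The start region between them did not pass the test, and in these 5 regions the genotypes did not overlap. The highest peak in the window outside the start was that of the neighbor gene Sec16a, at 146.9 to 178.6 in all 4 libraries.

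At Notch2 the start was called higher and no region was called lower. Yet 11 of its 17 shared regions were below 0, with a median log2 difference of -0.27, and the lowest in an intron 85.4 kb after the start had folds of 6.90 and 8.10 in Control and 5.03 and 3.63 in TRF2KO (-0.68, adjusted p = 0.062). Its highest peak lay in an intron 10.9 kb after the start (chr3:98023254-98027181), above the start itself, with folds of 123.8 and 103.5 in Control and 123.5 and 124.4 in TRF2KO (log2 difference 0.01, SE 0.06). Other processing called this region in opposite directions. It was -0.52 with the mean fold of its peaks (limma adjusted p = 0.0256) and 0.28 with median centring (limma adjusted p = 0.00206). Notch3 had 1 called region, 48.1 kb after the start and past the end of the gene (chr17:32116273-32120053), with folds of 62.1 and 51.5 in Control and 44.4 and 42.4 in TRF2KO (-0.40, SE 0.09, adjusted p = 0.00417). With median centring it was -0.24 (adjusted p = 0.0596). Its other 11 shared regions were not called, and the highest of them outside the start, 6.57 kb before it, had folds of 71.1 and 54.2 against 66.6 and 65.1.

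Notch4 had its strongest peak of its own at the end of the gene. While its start was at the detection limit, a region at the other end of the gene, 23.1 kb on (chr17:34585785-34588329), had folds of 91.1 and 84.4 in Control and 101.5 and 91.9 in TRF2KO (log2 difference 0.04, SE 0.07). The Notch4 window holds the starts of 5 other coding genes, and its 1 called region, higher in TRF2KO, covered the start of the neighbor gene Pbx2 (folds 29.7 and 26.8 in Control, 41.2 and 31.1 in TRF2KO, log2 difference 0.39, adjusted p = 0.0315, 0.25 without TRF2KO replicate 1). All 5 shared regions of this window were above 0, with a median of 0.13, though only that region passed the test. The windows of Notch3, Jag1 and Rbpj hold none.

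The ligand genes each had 1 called region, none of them at the start. In Jag1 it was the strongest peak outside the start, in an intron 15.3 kb after it (chr2:137100714-137101815), with folds of 52.2 and 45.4 in Control and 37.5 and 32.9 in TRF2KO (log2 difference -0.46, SE 0.10, adjusted p = 0.00242). Leaving out any 1 library gave -0.49 to -0.42 for this region. In Jag2 a region 12.5 kb into the gene (chr12:112916655-112918444) had folds of 16.1 and 18.9 in Control and 11.2 and 7.26 in TRF2KO (-0.81, SE 0.20, adjusted p = 0.00762). In Dll1 a region 3.83 kb after the start (chr17:15371721-15374128) had folds of 40.3 and 27.7 in Control and 24.2 and 23.4 in TRF2KO (-0.43, SE 0.13, adjusted p = 0.0287), and the difference was -0.25 without Control replicate 1. Dll4 went the other way, with a region 12.4 kb after the start and beyond the gene (chr2:119337312-119338505) at 32.7 and 34.7 in Control and 43.5 and 41.8 in TRF2KO (0.36, SE 0.11, adjusted p = 0.0331), and its difference was 0.22 without Control replicate 1. That region was the strongest of the Dll4 window outside the start, and its fold exceeded that of the Dll4 start itself in every library. The median over the shared regions of each ligand stayed between -0.06 (Dll1) and 0.05 (Dll4). The strongest peaks outside the start in the other 2 ligand windows were that over the start of the neighbor gene Fam120b in the Dll1 window (48.6 and 48.2 in Control, 55.3 and 52.9 in TRF2KO) and 1 at the edge of the Jag2 window (59.4 and 48.1 against 59.9 and 56.7), and neither was called.

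Rbpj had 17 shared regions, of which 2 were called higher and 1 lower. The principal transcript, Rbpj-203, starts 124 kb into the annotated gene, so most of its regions lay in introns of longer transcripts. The strongest region outside the start was 80.7 kb before that start (chr5:53509217-53510430), with folds of 45.8 and 37.3 in Control and 52.4 and 64.7 in TRF2KO (log2 difference 0.48, SE 0.11, adjusted p = 0.00367). Another, 99.6 kb before it (chr5:53490564-53491326), had folds of 10.8 and 13.3 in Control and 15.8 and 19.7 in TRF2KO (0.69, SE 0.19, adjusted p = 0.0176). In both, each TRF2KO library was above each Control library, and both held a TRF2 region. Without 1 library the log2 difference of the first was 0.28 (TRF2KO replicate 2 left out) to 0.66 (TRF2KO replicate 1) and that of the second 0.44 (Control replicate 1) to 0.95 (Control replicate 2). The region called lower lay before the first annotated start of the gene (chr5:53462560-53463531), with folds of 14.5 and 11.3 in Control and 8.92 and 5.67 in TRF2KO (-0.70, SE 0.21, adjusted p = 0.0306), and the difference was -0.43 without TRF2KO replicate 2.

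**Figure D4:**
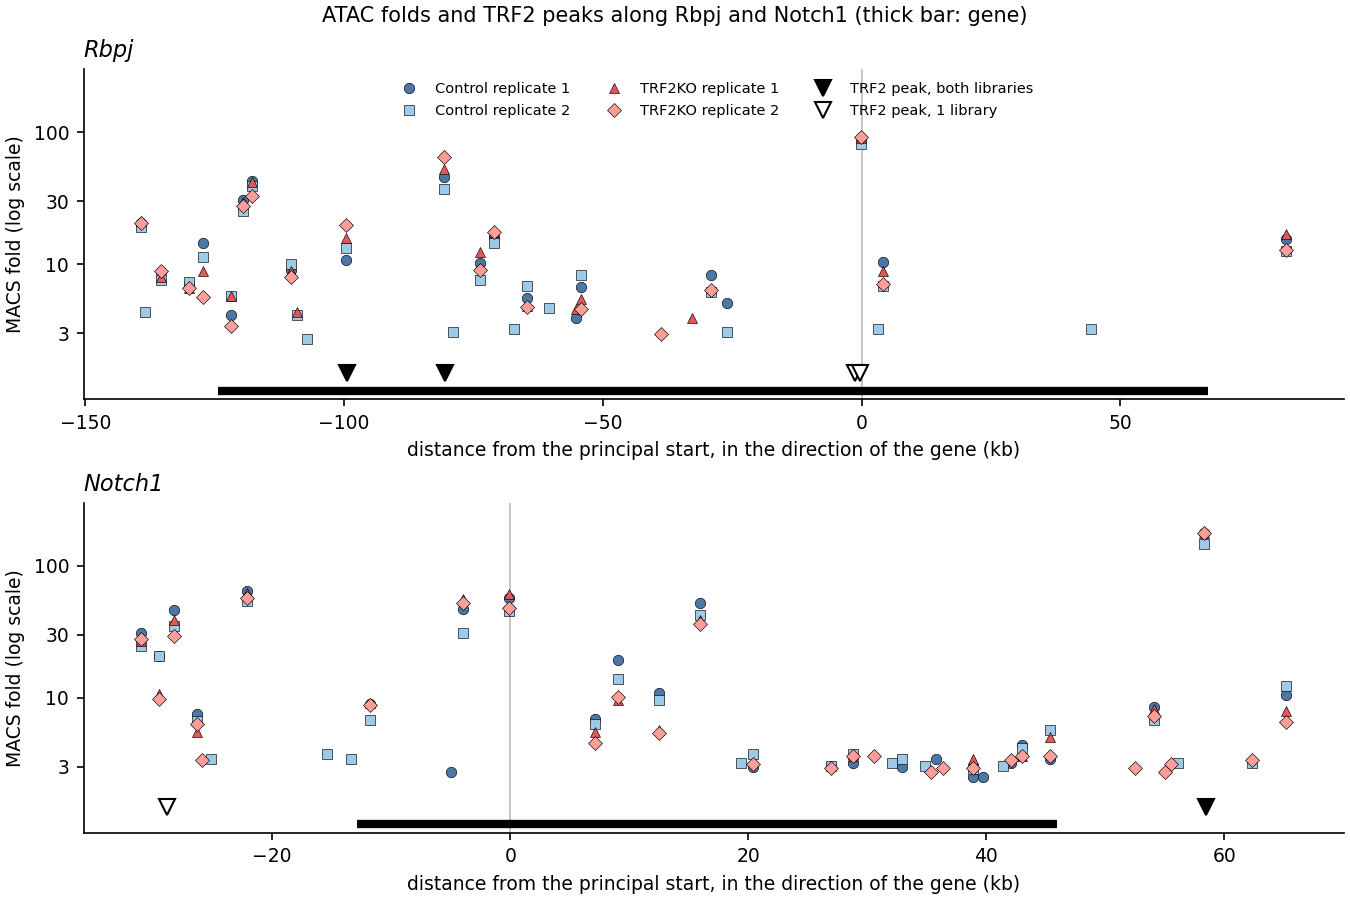
ATAC folds (log axis) of every merged region along Rbpj and Notch1 against distance from the principal start in kb, with 1 symbol per library. The thick bar is the annotated gene, filled triangles are TRF2 regions with a peak in both TRF2 libraries and empty triangles those in 1. At Rbpj the filled triangles sit under the regions 99.6 and 80.7 kb before the start, where both TRF2KO points lie above both Control points.

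TRF2 CUT&Tag peaks found in both libraries lay in 7 places in the 9 windows, at 5 of the 9 genes (41.9% of all protein-coding genes had one in the same kind of window, and windows differ in length). All 7 lay in regions accessible in all 4 ATAC libraries, which makes 7 of the 97 shared regions (10.5% of all shared regions held one). Of these 7 ATAC regions 2 were called higher in TRF2KO and 0 lower, both of the former in Rbpj, where 6.61% of all TRF2-bearing shared regions were called higher and 3.63% lower. No window held an IgG peak, and only 2.13% of all protein-coding gene windows did. Of the 7, 3 belonged to the starts of neighbor genes. They were at Rnf5 in the Notch4 window (folds 9.01 and 11.0 in TRF2 replicates 1 and 2), at 0610009E02Rik, beside the start of Sec16a, in the Notch1 window (7.42 and 10.0) and at Chac1 in the Dll4 window (4.66 and 6.74), and the first 2 were the strongest. Within the genes themselves there were 4. The Rbpj introns held 2, with folds of 6.69 and 6.22 (chr5:53509501-53510082) and 5.58 and 6.84 (chr5:53490663-53491259), on 9 to 11 fragments. The others were in exon 30 of Notch4 (chr17:34587239-34587704, folds 4.48 and 6.50) and in an intron of Notch3 1.16 kb after the start (chr17:32165323-32165749, folds 4.10 and 4.03, on 10 and 8 fragments). Notch3 was thus the 1 member with a TRF2 region in its start region (22.5% of all protein-coding genes had one).

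Peaks found in a single TRF2 library were more numerous. There were 19, and every gene of the 9 had at least 1. Such peaks lay at or near the start of Notch2 (fold 4.63, replicate 2), Dll1 (4.07, replicate 2), Jag2 (3.88, replicate 2) and Jag1 (5.43, replicate 1), on 7 to 10 fragments. At the Rbpj start each library had a peak within the same ATAC region, 1.27 kb before the start in replicate 1 (fold 7.13, 15 fragments) and 0.208 kb before it in replicate 2 (fold 6.88, 14 fragments). They did not overlap, so neither counted as found in both. These were stronger than several of the 7 shared peaks. The ATAC and TRF2 libraries differed in muscle and injury state, and no CUT&Tag library of TRF2KO cells was used here.

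**Figure D5:**
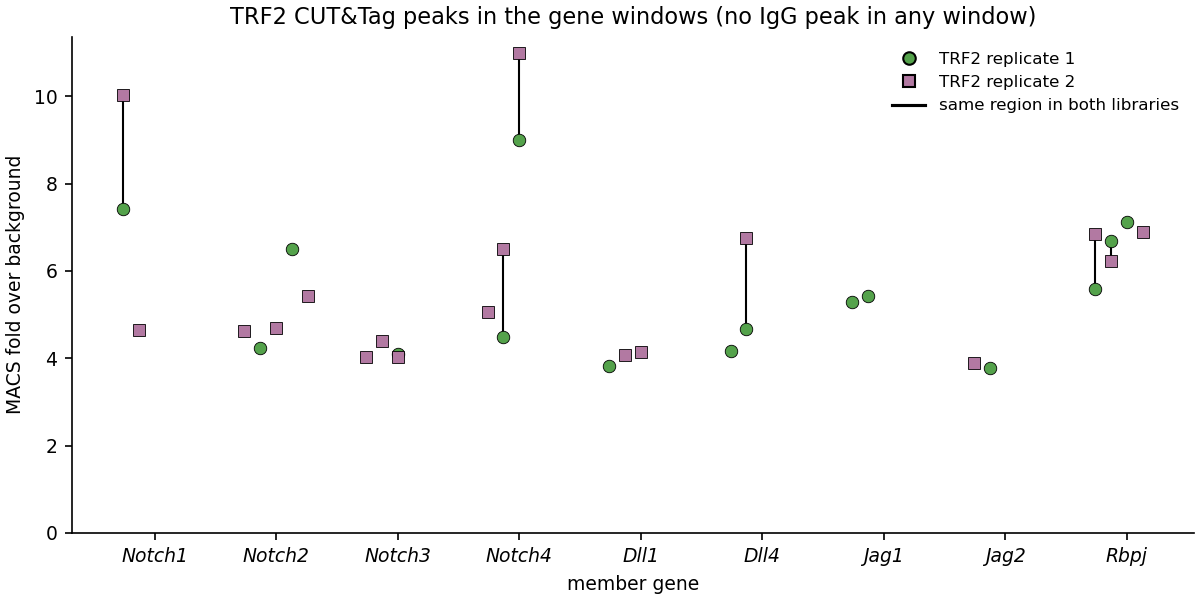
MACS fold of every TRF2 CUT&Tag peak in the windows of the 9 genes, with 1 symbol per library and a line joining the peaks of a region found in both libraries. Folds ran from 3.78 to 11.0, and the highest joined pairs lie in the Notch4 and Notch1 windows, at the starts of the neighbor genes Rnf5 and 0610009E02Rik.

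The sequences under the TRF2 regions that lay in an intron of a member are shown for comparison, 300 bases each from the RefSeq copy of GRCm38, taken around the TRF2 summit or, for the first, up to the end of the region so that the G4 pattern is included. Capitals mark the G4 pattern, 4 runs of at least 3 G on either strand (on the plus strand of the first sequence it reads as runs of C). The first Rbpj sequence (chr5:53490960-53491259, plus strand) holds a pattern with loops of up to 7 bases. The second Rbpj sequence (chr5:53509772-53510071, plus strand) holds none. The Notch3 sequence (chr17:32165547-32165846, minus strand) holds patterns that need loops of up to 12 bases, 1 within the TRF2 region and 1 in the flank toward the start.
Rbpj, 99.6 kb before the start: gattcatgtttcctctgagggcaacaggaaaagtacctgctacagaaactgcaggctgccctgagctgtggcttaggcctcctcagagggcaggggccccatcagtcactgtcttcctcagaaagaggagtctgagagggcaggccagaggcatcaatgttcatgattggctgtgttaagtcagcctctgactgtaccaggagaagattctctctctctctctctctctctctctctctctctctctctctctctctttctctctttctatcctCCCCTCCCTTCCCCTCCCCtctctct
Rbpj, 80.7 kb before the start: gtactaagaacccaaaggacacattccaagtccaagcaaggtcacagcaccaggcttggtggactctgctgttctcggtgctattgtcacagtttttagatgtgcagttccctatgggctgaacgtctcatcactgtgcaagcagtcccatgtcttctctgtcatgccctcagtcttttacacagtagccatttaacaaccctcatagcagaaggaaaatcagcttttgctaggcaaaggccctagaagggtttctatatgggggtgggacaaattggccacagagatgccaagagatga
Notch3, 1.16 kb after the start: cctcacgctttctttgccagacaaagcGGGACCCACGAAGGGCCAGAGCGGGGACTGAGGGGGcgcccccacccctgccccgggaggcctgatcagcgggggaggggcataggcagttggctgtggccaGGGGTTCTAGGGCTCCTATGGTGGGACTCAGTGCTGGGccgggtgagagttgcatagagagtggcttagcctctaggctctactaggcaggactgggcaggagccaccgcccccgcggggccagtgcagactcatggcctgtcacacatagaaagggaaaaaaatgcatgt

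Of the 7 TRF2 regions, 2 held the G4 pattern with loops of up to 7 bases (28.6%, against 35.5% of all TRF2 regions), that of Rbpj shown here and that at 0610009E02Rik. With loops of up to 12 bases it was 6 of 7 (85.7%, against 52.8%), so the order of the shares turned with the loop length. No telomeric repeat of at least 3 units was found in them. Among the 97 shared ATAC regions 43 held the G4 pattern anywhere in the region (44.3%, against 32.2% of all shared regions), with 4 of 5 at Notch4, 11 of 19 at Notch1, 6 of 9 at Jag2 and 5 of 17 at Rbpj. Within the 300 bases at the summit 16.5% held it (12.2% of all shared regions). Their mean GC content was 53.0% against 51.0%, and G4 patterns depend on GC content. Start regions of 8 of the 9 genes held the pattern, the exception being Notch2. The share over the start regions of all protein-coding genes was not determined, so this count cannot be read as a trait of these genes.

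The motif GTGGGAA, the core of the sequence that RBPJ recognizes, was searched on both strands in the 300 bases at the ATAC summit. It was present in 11 of the 97 shared regions (11.3%), against 7.94% of all shared regions. Rbpj held 4 of the 11, Notch1, Notch2 and Notch3 held 2 each, Notch4 held 1, and the ligand windows held none. With the shorter TGGGAA the share was 29.9% in both. The strongest such region of the Notch1, Notch2, Notch3 and Rbpj windows is shown, with the Notch1 region called lower in addition. Each is given as 41 bases in the direction of the motif, which is in capitals. The Notch4 region is left out because these bases overlap an annotated untranslated region.
Notch1, 12.5 kb after the start, called lower (chr2:26491302-26491342, minus strand): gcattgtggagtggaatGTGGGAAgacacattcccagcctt
Notch1, 22.1 kb before the start (chr2:26525811-26525851, plus strand): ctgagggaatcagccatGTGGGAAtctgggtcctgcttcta
Notch2, 33.0 kb after the start (chr3:98046602-98046642, plus strand): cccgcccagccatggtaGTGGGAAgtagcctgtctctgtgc
Notch3, in the start region (chr17:32164370-32164410, minus strand): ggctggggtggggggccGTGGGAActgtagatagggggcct
Rbpj, 139.2 kb before the start (chr5:53451327-53451367, plus strand): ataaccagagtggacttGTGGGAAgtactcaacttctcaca

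In the Notch1 region 12.5 kb after the start, the motif lay 29 bases from the ATAC summit, and this was the 1 region of the 11 that limma called. In the Notch3 start region it lay 30 bases from the summit. A match of letters shows neither binding by RBPJ nor its absence elsewhere.

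The genes around the core of the pathway were read at their starts. Of 38 genes for processing enzymes, modifiers, nuclear cofactors and antagonists, 35 had a start region in all 4 libraries. Of these 1 was called higher and 0 lower in TRF2KO (5.83% and 1.31% of the fitted start regions of all protein-coding genes). Their median log2 difference was 0.05, against 0.07 over all protein-coding genes. The called gene was Fbxw7, a ubiquitin ligase subunit that marks the active Notch domain for degradation, with folds of 15.2 and 15.5 in Control and 24.5 and 21.1 in TRF2KO (0.68, SE 0.15, adjusted p = 0.00341). The remaining 34 ran from -0.19 to 0.42. A TRF2 region lay at the start of 11 of the 38, where the 9 members had 1 (22.5% of all protein-coding genes had one).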

How the data were processed

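The members and gene lists were chosen with earlier results of these data known. The 7 libraries were grouped by title. Per the methods of the study, reads were aligned to mm10 with Bowtie2, duplicates were removed with Picard, and proper pairs were kept. Peaks were called by the authors per library with MACS, SEACR (stringent) and GoPeaks. No shift of ATAC reads and no IgG control for peak calling is stated, so summits may be off by some bases and TRF2 folds are over local background. Each MACS peak carries the authors' fold ratio over background at the summit, and their -log10 p-value and q-value. That background was constant within each ATAC library and varied between peaks in the CUT&Tag libraries. The deposited score, SEACR signal and consensus score were not used in any test. The consensus lists, named by genotype, were taken as pooled.

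Peaks on chromosomes 1 to 19, X and Y were merged where they shared at least 1 bp. A region's fold was that of its highest peak in each library. Folds of regions with a peak in all 4 ATAC libraries (Y left out) were set to log2, quantile-normalized and compared with limma 3.58.1 (R 4.3.3, trend, Benjamini-Hochberg over 61595 regions, threshold 0.05), as tested on simulated data. These are ratios of the authors and not counts, so no count model was used. Where the labels name 2 biological replicates per ATAC group, p-values rest on the spread between these libraries. Limma drew the variance of each region toward a trend over all 61595 regions. A limma p-value thus does not measure the spread at its region alone. Summit pileups were recovered from each fold and Poisson p (whole fragments, -log10 p under 200), and larger ones from the constant background of the library. An exact permutation test (two-sided) was used for totals. A TRF2 region was a merged region with a peak in both TRF2 libraries. Principal starts were those of the APPRIS principal transcripts in GENCODE M21, and sequences came from the RefSeq copy of GRCm38, whose chromosome coordinates mm10 shares. Named were all members, the start and TRF2 regions, the highest peak outside the start, and, chosen by their p, the called regions. Genotype-specific regions were to be named as well, but all were counted by gene and only the highest and the next are placed here. Pathway genes were named where their start was called. The rule also named those with a region of 1 genotype in the window, which are not reported here. The alternatives were other windows, callers, thresholds, overlaps, scalings and summaries, single libraries left out, and a replicate block.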

Additional observations from a re-analysis of the deposited data

How the results depend on the processing

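The sum of peaks over the 9 windows stayed lower in TRF2KO under every alternative except the SEACR lists, where the difference was 9 peaks. Leaving out 1 library gave -30 to -5. The replicate block gave the same -17.5 peaks (exact permutation p within pairs 0.5), and in limma 7 regions higher and 11 lower with the block, against 6 and 9. Samples of the same number deviated with r = 0.0113 over regions. This gives no sign that the numbers pair the libraries, but with 2 libraries per group it cannot exclude a pairing.

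Regions with a peak in every library numbered 55 in the gene bodies, 17 with SEACR, 59 for MACS peaks found by both other callers and 28 in the consensus lists, where the cause was not tested, and 98 to 105 without 1 library. Control-only regions numbered 0 with SEACR, 3 with GoPeaks, 6 for peaks of all callers, 4 with a -log10 q of at least 5 and 2 in the consensus lists, and 17 to 47 without 1 library. TRF2KO-only regions numbered 1 with 50 kb windows, GoPeaks, 50% coverage or the consensus lists, and 1 to 17 without 1 library.

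Called regions numbered 16 higher with median centring, 2 higher without normalization, and 0 higher and 3 lower with the mean fold of a region's peaks. With no filter, where a peak in any library was enough, they numbered 0 and 0. That fit called none of its 122697 regions in the whole lists. Median centring put the median of all regions at 0.10, against 0.02 with quantiles. Of the 15 called regions, 13 kept their call with median centring, 7 without normalization, 2 with the mean fold and 15 with the stricter q. Signs turned under median centring at the Sec16a start (0.29) and the Jag1 start (0.15), without normalization at Sec16a (0.14), Jag1 (0.0023) and the Dll4 start (-0.10), and with the mean fold at the Notch2 start (-0.091), the highest Notch2 intron peak (-0.52) and the peak at the edge of the Jag2 window (-0.54). Without 1 library, signs turned within -0.12 to 0.26 (Dll4 start), -0.14 to 0.0018 (Jag2 start), -0.065 to 0.18 (Notch1 start), -0.038 to 0.047 (Notch2 intron), -0.049 to 0.19 (Notch3 start), -0.071 to 0.13 (Notch3, before the start) and -0.048 to 0.056 (Rbpj start).

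TRF2 regions in the windows numbered 26 in either library, 15 and 18 peaks in replicates 1 and 2 alone, 3 with a -log10 q of at least 5, 4 in gene bodies and 11 in 50 kb windows. Genes with one numbered 9 in either library, 9 in replicate 1, 8 in replicate 2, 3 with the stricter q and 3 in gene bodies. Loops of up to 12 bases gave 6 TRF2 regions with a G4 pattern, and TGGGAA was in 29 shared regions. TRF2 peaks resting on about 9 fragments limit what single sites can show.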
